A study of Mus musculus with 4 samples.

Results

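Sostdc1, Igfbp7, Cd200, Tbc1d4, Tnfsf8, Asb2 and Podnl1, 7 of the 32285 genes counted, were followed across CD4+ Tc states and in CD8+ Tc that held a Tcf7 UMI. They were chosen by their level in CD4+ precursor cells in earlier results from these same 4 libraries. Their levels across CD4+ Tc are therefore given as a description, without a test. The libraries held spleen Tc of BALB/c recipients, 1 library per mouse, taken on day 23 after BM transplantation. All recipients had received lethal total body irradiation, WEHI-3B cells, a mouse AML line, and allogeneic BM, with donor spleen Tc injected on day 2. In 2 mice the BM and Tc came from Havcr2fl/fl donors, which carry floxed Havcr2 without cre, and in 2 mice from Havcr2fl/fl;E8icre/+ donors. Both groups therefore share the floxed Havcr2 allele, the gene of TIM-3, and E8i-cre drives its deletion in CD8+ cells, so that CD4+ Tc were not the intended site of deletion. The study's methods give 1 range of ages, in weeks, for all its mice, and the labels give no age for single animals.

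T follicular helper cells are CD4+ Tc that help B cells in germinal centers and are known for CXCR5, BCL6, ICOS and IL-21. Precursor Tc keep the transcription factor TCF-1, encoded by Tcf7, and can renew while they give rise to effector cells. Of the genes followed, Sostdc1 encodes a secreted antagonist of BMP and Wnt signals that follicular helper cells are known to make. Igfbp7 encodes a secreted protein that binds insulin-like growth factors, and Podnl1 a secreted leucine-rich repeat protein. Cd200 is a surface glycoprotein that signals to the inhibitory receptor CD200R1, and Tnfsf8 (CD30 ligand) is a TNF superfamily ligand of CD30. Inside the cell, Tbc1d4 is a Rab GTPase-activating protein that AKT phosphorylates, and Asb2 is a substrate-binding subunit of a cullin 5 ubiquitin ligase that targets filamins.

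The 7 genes lie on 6 chromosomes of GRCm38 (GENCODE M21) and are all protein coding. Sostdc1 (chr12:36314139-36318452, plus strand) and Asb2 (chr12:103321142-103356001, minus strand) share chromosome 12. The others are Tnfsf8 (chr4:63831308-63861347, minus strand), Igfbp7 (chr5:77349240-77408041, minus strand), Podnl1 (chr8:84125989-84132527, plus strand), Tbc1d4 (chr14:101442360-101609191, minus strand) and Cd200 (chr16:45382135-45409053, minus strand). Windows of 250 bases before a RefSeq gene start (GRCm38.p6) were found for 5 of the 7 genes, with 2 windows for Asb2 and no entry for Sostdc1 and Podnl1. The windows of Tnfsf8, Cd200 and Tbc1d4 are shown because these genes moved together with Tcf7 in CD8+ Tc below. They were searched on both strands for CTTTGA and CTTTGT, core letters of the TCF/LEF motif, with matches in capitals. Each is written from 5′ to 3′ on the strand of its gene:
Tnfsf8, chr4:63861285-63861534, minus strand: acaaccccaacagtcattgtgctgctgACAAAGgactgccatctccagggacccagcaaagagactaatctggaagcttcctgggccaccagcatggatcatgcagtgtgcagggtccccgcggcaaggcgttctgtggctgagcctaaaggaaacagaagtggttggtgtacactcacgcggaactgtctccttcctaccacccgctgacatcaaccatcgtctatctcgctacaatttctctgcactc
Cd200, chr16:45409054-45409303, minus strand: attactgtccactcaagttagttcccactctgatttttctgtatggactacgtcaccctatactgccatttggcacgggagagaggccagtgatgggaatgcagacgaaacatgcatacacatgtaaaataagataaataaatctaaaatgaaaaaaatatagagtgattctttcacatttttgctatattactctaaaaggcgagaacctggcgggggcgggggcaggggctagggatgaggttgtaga
Tbc1d4, chr14:101609192-101609441, minus strand: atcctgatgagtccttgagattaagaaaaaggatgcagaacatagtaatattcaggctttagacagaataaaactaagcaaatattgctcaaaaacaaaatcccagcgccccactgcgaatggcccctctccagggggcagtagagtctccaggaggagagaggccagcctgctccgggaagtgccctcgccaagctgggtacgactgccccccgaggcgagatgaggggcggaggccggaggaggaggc
Tnfsf8 held 1 match to CTTTGT, read on the opposite strand, with its first base 223 bases before the RefSeq start. This start lies inside the GENCODE span of Tnfsf8 given above, so its window overlaps that span. Cd200 and Tbc1d4 held none, nor did Igfbp7 or either window of Asb2. Among 32851 such windows, 27.6% held either motif, 13.8% held CTTTGA and 16.5% held CTTTGT, so a single match among these genes is near the level of the rest and marks letters, not a bound site.

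The libraries held 1511 to 6737 barcodes and 17693991 to 55045903 gene UMIs, and pairs of libraries shared 1 to 10 barcode sequences. After filtering, 11513 cells were used, of which 6766 fell in clusters of Tc, where 99.2% to 100% of cells held a Cd3 UMI. The other 4747 cells fell in clusters where 4.98% to 19.8% held one, although the libraries were labelled as T cells and made after a pan-T isolation. Of the Tc, 1754 were CD4+ Tc (a Cd4 UMI and no Cd8a or Cd8b1 UMI; 241 to 625 per library) and 4257 were CD8+ Tc (the reverse; 487 to 1530 per library). The targeted gene did not separate the labels: in CD8+ Tc, Havcr2 stood at 61.2 and 7.93 CPM (the UMIs of a gene relative to all UMIs of the class in that library, scaled as usual for CPM) in the libraries labelled Havcr2fl/fl;E8icre/+ replicates 1 and 2, against 54.7 and 115 CPM in those labelled Havcr2fl/fl. Replicate 1 labelled Havcr2fl/fl;E8icre/+ thus lay above 1 of the control libraries, and 3′ counts need not cover the deleted part, which is not given in the sources used here. The donor-haplotype tag had medians of 1139 to 2398 UMIs per cell in CD4+ Tc and 935 to 2256 in their precursor-like cluster. In cells outside the Tc clusters its medians were higher, at 2639 to 3857 UMIs, so the medians alone do not tell the origin of the cells.

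CD4+ Tc formed 6 clusters, made without the 7 genes among the variable genes. Cluster 1 (320 cells, 40 to 157 per library) was precursor-like, with 5 of 6 precursor markers raised (Tcf7, Slamf6, Id3, Il7r and Lef1). Ccr7 and Il6ra led its top genes, it also raised 3 of 5 naive markers and 2 of 6 interferon markers, and Sostdc1 was among them. Cluster 2 was cytotoxic-like (308 cells), cluster 4 cycling-like (143 cells) and cluster 5 regulatory-like (106 cells). Clusters 0 (596 cells, led by Prxl2a, Ebi3 and Igfbp7) and 3 (281 cells, led by Ifitm1 and Ifitm2) stayed unnamed. Cluster 3 raised 3 of 5 naive markers (S1pr1, Klf2 and Satb1), but its top genes held none of these and held Ly6c2, a Th1 effector marker. Tcf7 itself stood at 579 to 639 CPM in cluster 1 and 93.9 to 139 CPM in cluster 0. Values below sum the UMIs of a cluster within each library, in the order Havcr2fl/fl;E8icre/+ replicates 1 and 2, then Havcr2fl/fl replicates 1 and 2. In such sums, fewer expressing cells and fewer UMIs per cell cannot be told apart.

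With the clusters as drawn, 4 of the 7 genes were higher in the precursor-like cluster. The genes were chosen by their level in such cells of these libraries, so this describes them and does not test the choice. Sostdc1, Cd200, Tbc1d4 and Tnfsf8 were higher in cluster 1 than in the other CD4+ Tc of the same library in 4 of 4 libraries. Igfbp7 and Podnl1 were lower there in 4 of 4, and Asb2 was higher in 2 of 4. The mean log2 ratios (CPM + 1; cluster 1 over other CD4+ Tc) had a median of 1.03 over the 7 genes. For Igfbp7, Asb2 and Podnl1 the direction turned where cluster 0 joined cluster 1, and it kept its sign with a higher resolution, with the members among the variable genes and with a division by a Tcf7 UMI in place of the clusters. With the cells that Scrublet called as doublets kept in, CD4+ Tc numbered 1755 in place of 1754 and were clustered anew. The precursor-like cluster then grew to 875 cells and took in 583 of the 596 cells of cluster 0. The border between clusters 0 and 1 thus moved while the number of CD4+ Tc hardly changed. The log2 ratios of Igfbp7, Asb2 and Podnl1 were then 1.81, 1.56 and 0.92, in place of -2.28, -0.29 and -0.84.

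**Figure D1:**
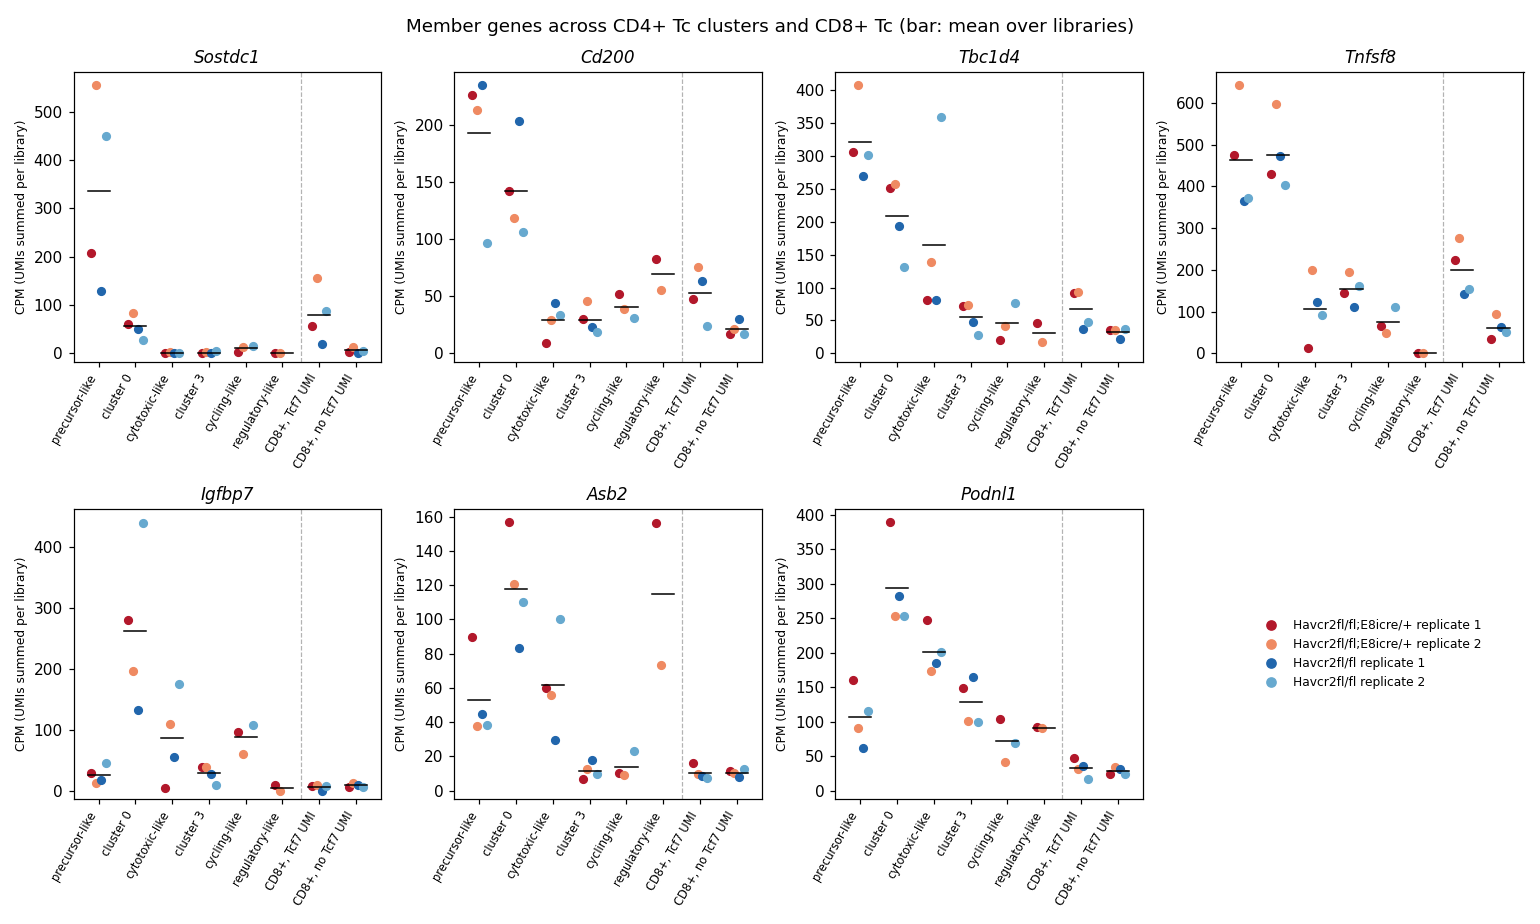
Summed CPM of each gene (linear axis, own scale per panel) in the 6 CD4+ Tc clusters and in CD8+ Tc with and without a Tcf7 UMI. Points are libraries with at least 20 cells in the class and bars are their means; Sostdc1 stands out in the precursor-like cluster, whereas Igfbp7 and Podnl1 peak in cluster 0.

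Sostdc1 was the member tied most closely to cluster 1, where it stood at 207, 554, 129 and 450 CPM, from 44, 467, 23 and 70 UMIs. In cluster 0 it stood at 60.8, 83.2, 49.9 and 28.6 CPM, so that the ranges of the clusters did not overlap. Cluster 1 held 76.1% of all Sostdc1 UMIs of CD4+ Tc but 15.0% of all their UMIs. The cytotoxic-like cluster held 1 Sostdc1 UMI and cluster 3 held 2. The regulatory-like cluster held 0 UMIs among 415785, which allows up to 7.22 CPM, a limit for counting error only. Its log2 ratio between cluster 1 and other CD4+ Tc was 3.76 ± 0.94 (SD, n = 4 libraries). Within each genotype the 2 libraries lay far apart, and the ranges of the genotypes overlapped. After thinning each cell to 2000 UMIs (27 of the 320 cells were shallower and left out), 10.8% to 39.9% of the cells of cluster 1 held a Sostdc1 UMI, against 1.99% to 6.16% in cluster 0 and 0% to 0.38% in cells that were not Tc. Without thinning these shares were 10% to 47.1%, 5.49% to 8.92% and 0% to 0.67%, at median depths of 4212, 4220 and 16756 UMIs.

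The 2 surface ligands differed in how far they reached beyond cluster 1. Cd200 stood at 226, 214, 236 and 96.5 CPM in cluster 1 and at 142, 119, 204 and 106 CPM in cluster 0. It was higher in cluster 1 in 3 of 4 libraries, with overlapping ranges. In the regulatory-like cluster, Cd200 stood at 82.7 and 55.9 CPM in the 2 libraries with at least 20 such cells, both labelled Havcr2fl/fl;E8icre/+. Tnfsf8 stood at 476, 642, 365 and 373 CPM in cluster 1 and at 431, 596, 474 and 404 CPM in cluster 0, with 2 of 4 libraries higher in cluster 1 and overlapping ranges. Cluster 3 followed at 112 to 196 CPM. The regulatory-like cluster again held 0 Tnfsf8 UMIs, which allows up to 7.22 CPM. Clusters 0 and 1 carried 51.2% and 29.4% of the Tnfsf8 UMIs of CD4+ Tc.

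Tbc1d4 stood at 306, 408, 269 and 302 CPM in cluster 1, above 252, 257, 193 and 131 CPM in cluster 0 without overlap of the ranges. The cytotoxic-like cluster held 80.7, 139, 81.3 and 359 CPM. Here 1 library stood apart, Havcr2fl/fl replicate 2 with 37 such cells, which exceeded its own precursor-like cells. The log2 ratio of cluster 1 to other CD4+ Tc, 1.44 ± 0.08 (SD, n = 4 libraries), was the most even of the 7.

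Asb2, the other intracellular member, peaked elsewhere. It stood at 157, 121, 83.1 and 110 CPM in cluster 0 and at 89.6, 38.0, 44.9 and 38.6 CPM in cluster 1. The regulatory-like cluster held 156 and 73.1 CPM in the libraries labelled Havcr2fl/fl;E8icre/+, 1 inside and 1 below the range of cluster 0. Smaller numbers of regulatory-like cells in the Havcr2fl/fl libraries (4 and 17) gave 66.7 and 292 CPM from 2 and 13 UMIs. Cluster 3 (6.95 to 17.6 CPM) and the cycling-like cluster (8.91 to 23.2 CPM) were low.

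The secreted Igfbp7 and Podnl1 were cluster 0 genes in these data. Igfbp7 stood at 280, 197, 133 and 441 CPM in cluster 0 and at 28.3, 11.9, 16.8 and 45 CPM in cluster 1, where it rested on 26 UMIs in all. Its level in the cytotoxic-like cluster ran from 3.75 to 175 CPM between libraries. Cluster 0 held 66.4% of the Igfbp7 UMIs of CD4+ Tc and cluster 1 held 2.80%. Podnl1 stood at 389, 252, 282 and 253 CPM in cluster 0, followed by 248, 173, 185 and 200 CPM in the cytotoxic-like cluster and 160, 90.2, 61.7 and 116 CPM in cluster 1. Cluster 0 did not overlap either of them. No CD4+ Tc cluster was without Podnl1, which stood at 41.6 CPM or more in each library with at least 20 cells of the cluster. A division of CD4+ Tc without a Foxp3 UMI by a Tcf7 UMI, with no use of the clusters, gave mean log2 ratios of 2.00 for Sostdc1, 0.86 for both Cd200 and Tbc1d4 and 0.49 for Tnfsf8, each above 0 in 4 of 4 libraries. For Igfbp7, Asb2 and Podnl1 it gave -1.02, -0.60 and -0.53, each below 0 in 4 of 4.

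Cells of cluster 0 and of cluster 1 often held several members at once. At 2000 UMIs per cell, 35.1% of 567 cells of cluster 0 and 28.0% of 293 cells of cluster 1 held UMIs of at least 3 of the 7 genes, with ranges over libraries of 24.6% to 39.8% and 16.2% to 35.3%. The share was 5.84% in CD8+ Tc with a Tcf7 UMI, 0.93% in those without one and 0.11% in cells that were not Tc. Within a cluster the genes were at most weakly related from cell to cell. Pearson's r over 21 pairs of genes ran from -0.05 to 0.15 in cluster 0 and from -0.04 to 0.26 in cluster 1. In cluster 1 the pairs among Sostdc1, Cd200, Tbc1d4 and Tnfsf8 stood highest, from 0.14 (Cd200 with Sostdc1) to 0.26 (Cd200 with Tnfsf8). Cd200 and Tnfsf8 were held together by 54 cells, against 39.9 expected from their shares within libraries. The other pairs of cluster 1 reached at most 0.12 (Asb2 with Podnl1). The r values pooled the cells of all libraries, so differences between libraries enter them. Of the 293 cells of cluster 1, 153 came from Havcr2fl/fl;E8icre/+ replicate 2. Such weak values in sparse counts describe the cells and were not tested.

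**Figure D2:**
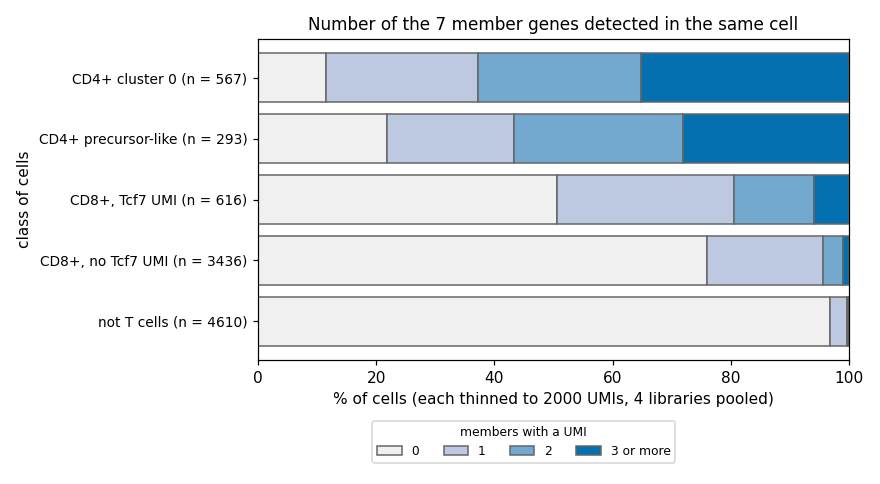
Share of cells (%, 4 libraries pooled, each cell thinned to 2000 UMIs) in which 0, 1, 2 or at least 3 of the 7 genes had a UMI, for 5 classes of cells with their numbers. At least 3 genes were detected in 35.1% of cluster 0 and 28.0% of precursor-like cells, and in 0.11% of cells that were not Tc.

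The choice of the genes rested on CD4+ Tc, so CD8+ Tc were tested. A Tcf7 UMI was held by 625 CD8+ Tc (75 to 239 per library) and by 0.40% to 2.39% of the cells that were not Tc. Median depths were 3364 to 6540 UMIs per cell over the libraries in the class with a Tcf7 UMI and 3006 to 7110 in the 3632 CD8+ Tc without one. Sums of both classes were compared within the library with edgeR's quasi-likelihood test, adjusted by Benjamini-Hochberg over 9655 genes. Of these genes, 7.94% were called higher with a Tcf7 UMI and 7.31% lower, at an adjusted p under 0.05. Of the 7 members, 4 rose and none fell, with a median log2 fold change of 1.19 against 0.00 for all genes. The 4 that rose, Sostdc1, Tnfsf8, Cd200 and Tbc1d4, are the 4 that were higher in the precursor-like CD4+ Tc. Both comparisons use the same libraries and rest on Tcf7, a marker that named cluster 1 and the gate in CD8+ Tc. The match is therefore a description and no independent support for the choice of genes.

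Sostdc1 stood at 56.1, 156, 18.8 and 87.1 CPM in CD8+ Tc with a Tcf7 UMI and at 3.10, 13.6, 1.18 and 5.70 CPM in those without one. The classes did not overlap, and each library was higher with a Tcf7 UMI. Sostdc1 rose by a log2 fold change of 3.82 ± 0.17 (SE; edgeR adjusted p = 2.57e-13), rank 11 by fold among 767 genes that rose. At equal depth, 1.37% to 17.6% of CD8+ Tc with a Tcf7 UMI held Sostdc1 and 0.25% to 1.27% of those without, against 0% to 0.38% of cells that were not Tc. Even so, CD8+ Tc with a Tcf7 UMI stayed below the precursor-like CD4+ Tc of their own library in 4 of 4 libraries, and the same held for each of the other 6 genes. These classes were not drawn alike, since 1 is a cluster and the other a gate on Tcf7. The genes were also chosen by their level in CD4+ precursor cells of these libraries, which favored this order beforehand. In CD4+ Tc with a Tcf7 UMI and no Foxp3 UMI, Sostdc1 stood at 57.4, 323, 51.3 and 151 CPM. The first value, of Havcr2fl/fl;E8icre/+ replicate 1, was close to the 56.1 CPM of its CD8+ Tc with a Tcf7 UMI.

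Tnfsf8 stood at 223, 276, 142 and 155 CPM with a Tcf7 UMI and at 34.1, 93.4, 62.3 and 52.0 CPM without one, again apart. It rose by 1.85 ± 0.28 (SE; edgeR adjusted p = 0.0182). The rise stayed with each library left out, but the call did not. Without Havcr2fl/fl;E8icre/+ replicate 2 the log2 fold change was 1.98 (edgeR adjusted p = 0.0978), and without Havcr2fl/fl replicate 2 it was 1.89 (edgeR adjusted p = 0.147). Without Havcr2fl/fl;E8icre/+ replicate 1 it was 1.51 (edgeR adjusted p = 4.13e-07), and without Havcr2fl/fl replicate 1 it was 2.00 (edgeR adjusted p = 0.00666). Cd200 stood at 48.0, 76.0, 63.3 and 23.5 CPM with a Tcf7 UMI and at 17.1, 21, 30.3 and 17.3 CPM without one. Its ranges overlapped, though each library was higher with a Tcf7 UMI, and it rose by 1.46 ± 0.17 (SE; edgeR adjusted p = 1.07e-06). Tbc1d4 stood at 92.3, 93.2, 37.6 and 47.1 CPM against 36.1, 35.3, 22.0 and 36.5 CPM and rose by 1.19 ± 0.15 (SE; edgeR adjusted p = 2.53e-06).

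The other 3 genes were low in CD8+ Tc and did not pass the test. Podnl1 had a log2 fold change of 0.29 ± 0.19 (SE; edgeR adjusted p = 0.364) from 139 and 573 UMIs in the classes. Asb2 had 0.12 ± 0.28 (SE; edgeR adjusted p = 0.850) and Igfbp7 -0.37 ± 0.39 (SE; edgeR adjusted p = 0.626), from 45 and 28 UMIs with a Tcf7 UMI. Each of the 3 was higher with a Tcf7 UMI in 2 of 4 libraries. With a Slamf6 UMI counted as well as Tcf7, the log2 fold change of Igfbp7 was 0.85 with an edgeR adjusted p of 0.0225.

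**Figure D3:**
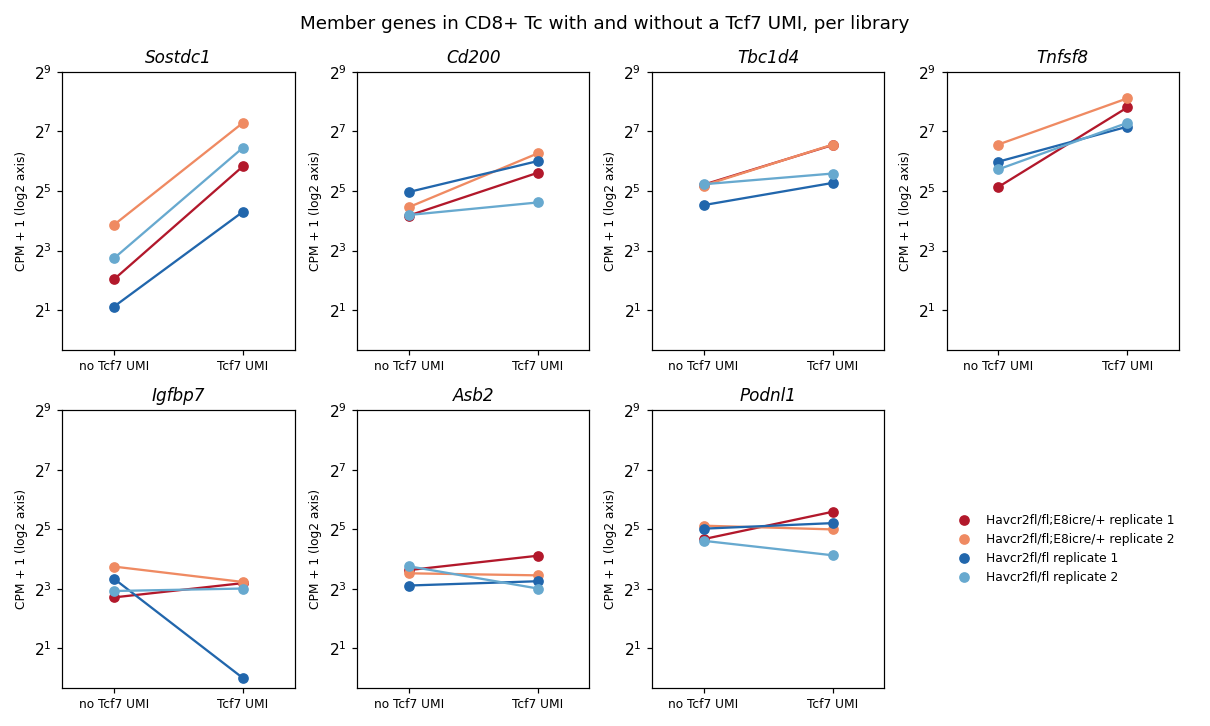
CPM + 1 (log2 axis) of each gene in CD8+ Tc without and with a Tcf7 UMI, with a line for each library. All 4 lines rise for Sostdc1, Cd200, Tbc1d4 and Tnfsf8, whereas Igfbp7, Asb2 and Podnl1 have 2 rising and 2 falling lines.

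Genes of the follicular helper program moved in part with the members in the same CD8+ Tc. Of 18 listed genes 13 were tested, 7 rose and 2 fell with a Tcf7 UMI, with a median log2 fold change of 0.71. Cxcr5 was below the count filter and not tested. It stood at 3.42 to 20.4 CPM (66 UMIs) with a Tcf7 UMI and 0.23 to 1.47 CPM (14 UMIs) without one. P2rx7, a purinergic receptor, rose by 1.75 ± 0.18 (SE), Btla, an inhibitory receptor, by 1.49 ± 0.22, Bcl6, the repressor that directs the follicular helper fate, by 1.46 ± 0.35 and Cd40lg, the helper signal to B cells, by 1.44 ± 0.42. Il21, the helper cytokine, rose by 1.17 ± 0.32, Icos, a costimulatory receptor, by 1.06 ± 0.11 and Izumo1r, the folate receptor 4 gene, by 0.71 ± 0.14. Pdcd1, which encodes PD-1, fell by 0.55 on the log2 scale and Tox2 fell by 0.74. In CD4+ Tc, Il6ra, a receptor chain for IL-6, stood at 83.6 to 104 CPM in cluster 1 and 0 to 2.43 CPM in cluster 0. Cxcr5, the follicle homing receptor, stood at 28.0 to 56.6 CPM and 0 to 7.32 CPM. Pdcd1 (84.9 to 151 CPM against 365 to 400 CPM) and Maf, a transcription factor (189 to 399 CPM against 593 to 941 CPM), ran the other way, as Igfbp7 and Podnl1 did. Tox2 (61.3 to 101 CPM against 8.16 to 33.2 CPM) was higher in cluster 1, although it fell in CD8+ Tc with a Tcf7 UMI. Btla stood at 107 to 203 CPM against 49.0 to 96.1 CPM and Izumo1r at 252 to 305 CPM against 161 to 208 CPM. Il6st stood at 39.3 to 59.4 CPM against 8.31 to 16.3 CPM, again without overlap. Izumo1r and Il6st were not particular to cluster 1. The regulatory-like cluster held 637 to 717 CPM of Izumo1r and 43.0 to 55.1 CPM of Il6st (2 libraries). The cytotoxic-like cluster held 14.8 to 66.7 CPM of Il6st. For Il6ra, Cxcr5, Tox2 and Btla no other CD4+ Tc cluster reached the range of cluster 1, in libraries with at least 20 cells of the cluster. Bcl6, Icos, Il21 and Cd40lg did not part the 2 clusters, and their ranges overlapped. Bcl6 stood at 8.31 to 12.9 CPM in cluster 1 and 4.08 to 15.8 CPM in cluster 0, and Icos at 264 to 438 and 302 to 366 CPM. Il21 stood at 32.2 to 104 and 68.6 to 127 CPM, and Cd40lg at 38.6 to 78.5 and 28.0 to 106 CPM.

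Among TNF superfamily ligands, relatives of Tnfsf8, 9 of 10 were tested in CD8+ Tc, and 4 rose and 2 fell with a Tcf7 UMI (median 0.63). Tnfsf11, the RANK ligand, rose by 3.55 ± 0.46 (SE), Tnfsf14 (LIGHT) by 1.87 ± 0.20, Cd40lg as above and Ltb, a lymphotoxin chain, by 0.63 ± 0.09. Fasl, a death ligand, fell by 2.3 and Tnfsf10 (TRAIL) fell by 0.45 on the log2 scale. Of 21 receptors, complex subunits, substrates and kinases that work with the members, 14 were tested, 2 rose and 2 fell (median -0.05). Cd200r1, the receptor for CD200, fell by 1.82 on the log2 scale where Cd200 rose, and Eloc, an elongin subunit of the ligase that Asb2 joins, fell by 0.38. Igf1r, the growth factor receptor, rose by 2.63 ± 0.35 and Flna, a filamin, by 0.56 ± 0.13. Tnfrsf8, which encodes CD30, had 0 UMIs in precursor-like CD4+ Tc. Of 8 paralogs only Tbc1d1, the relative of Tbc1d4, was tested, and it rose by 0.51 ± 0.12. Adjusted p-values of these calls, all under 0.05, came from the same edgeR fit. In that fit 7.94% of all genes tested rose and 7.31% fell, which bears on the counts of each list. No list was tested as a set.

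Genotypes were compared with edgeR in all CD4+ Tc, in the precursor-like cluster and in CD8+ Tc with a Tcf7 UMI, with 2 libraries per group. No member was called in any of the 3. In all CD4+ Tc, 0.0104% of 9650 genes were called (1 gene), and 7 members were tested, none with an unadjusted p under 0.05. In the precursor-like cluster, 0.03% of 3329 genes were called (1 gene), and 5 members were tested, since Igfbp7 and Asb2 were below the count filter. Tnfsf8 alone had an unadjusted p under 0.05, at a log2 fold change of 0.64 ± 0.27 (SE; edgeR adjusted p = 0.999). In CD8+ Tc with a Tcf7 UMI, 0.0526% of 7601 genes were called (4 genes), and the same 5 members were tested. There Tbc1d4 had a log2 fold change of 1.11 ± 0.27 (SE; edgeR adjusted p = 0.371) and Tnfsf8 of 0.72 ± 0.23 (SE; edgeR adjusted p = 0.604), each with an unadjusted p under 0.05. Both stood higher in each library labelled Havcr2fl/fl;E8icre/+ than in each Havcr2fl/fl library, although Havcr2 itself did not part the labels in CD8+ Tc. DESeq2 called 0 members in each comparison, with 0, 0 and 2 members at an unadjusted p under 0.05.

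Sostdc1 had the widest errors between genotypes, with log2 fold changes of 0.74 ± 1.16, 0.53 ± 0.94 and 1.13 ± 0.98 (SE) in the 3 classes and edgeR adjusted p-values of 1.00, 0.999 and 0.952. It was the member most open to single libraries. The library labelled Havcr2fl/fl;E8icre/+ replicate 1 had a Havcr2 level in CD8+ Tc between those of the control libraries. Without it, the log2 fold change of Sostdc1 was 1.44 in CD4+ Tc and 1.67 in CD8+ Tc with a Tcf7 UMI. Without Havcr2fl/fl replicate 2 it was 1.69 in the precursor-like cluster and 2.51 in CD8+ Tc with a Tcf7 UMI, where Tbc1d4 then had 1.26. Without Havcr2fl/fl;E8icre/+ replicate 2 the log2 fold change of Sostdc1 was -0.81 in CD4+ Tc and -0.51 in the precursor-like cluster. In these fits 1 group has a single library, which is assumed to vary like the others. None of the listed helper, partner, paralog or TNF ligand genes was called between genotypes. Summed myeloid markers (6 genes) ran with the genotype, at 4.71 to 13.1 CPM in precursor-like CD4+ Tc labelled Havcr2fl/fl;E8icre/+ and 56.1 to 70.7 CPM in Havcr2fl/fl, and at 14.7 to 20.8 against 41.1 to 47.1 CPM in CD8+ Tc with a Tcf7 UMI. Summed erythroid markers (6 genes) also parted the genotypes in these classes. In CD8+ Tc with a Tcf7 UMI they stood at 1208 to 4122 CPM in the libraries labelled Havcr2fl/fl;E8icre/+ and at 200.2 to 558 CPM in Havcr2fl/fl, the same direction as Tbc1d4 and Tnfsf8. In precursor-like CD4+ Tc they stood at 177 to 212 against 292 to 688 CPM. The part of either marker list in these values was not tested.

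**Figure D4:**
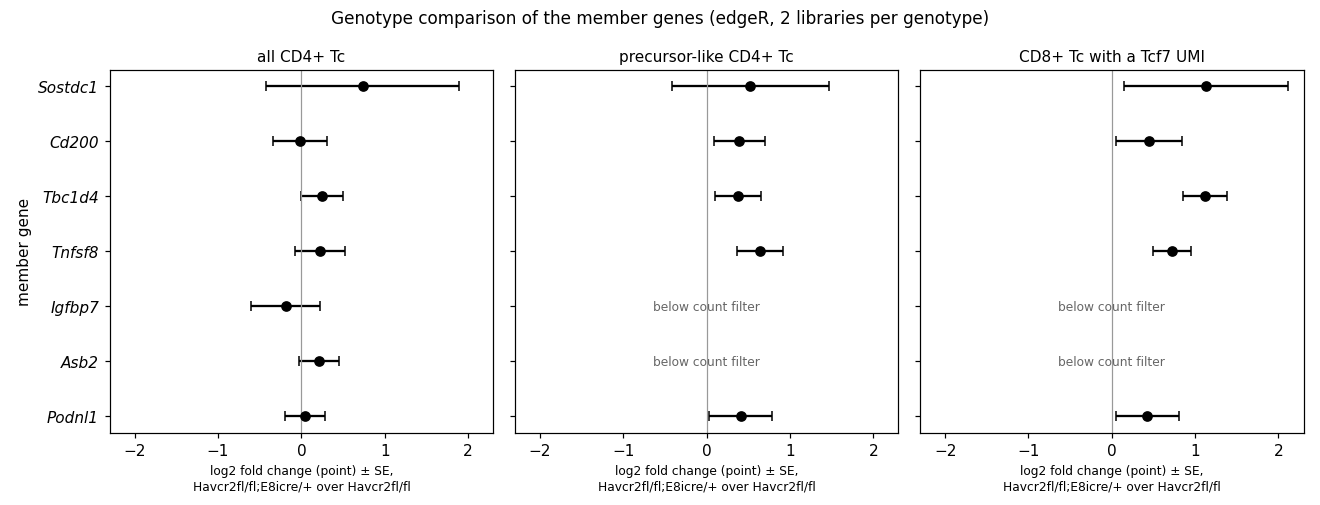
Log2 fold changes (points) with SE (bars) of Havcr2fl/fl;E8icre/+ over Havcr2fl/fl for each gene in 3 classes of Tc, from 2 libraries per genotype. None passed an adjusted p of 0.05, and Igfbp7 and Asb2 were below the count filter in 2 of the classes.

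Across 29 sums of library by class (CD4+ Tc clusters and both CD8+ Tc classes, at least 20 cells each), the members did not fall into separate groups. Sostdc1 went with Cd200, Tbc1d4 and Tnfsf8 (Pearson's r of log2(CPM + 10) 0.71, 0.66 and 0.71) and not with Igfbp7 (0.05) or Podnl1 (-0.03). Podnl1 went with Asb2 (0.73) and Igfbp7 (0.68). Other pairs lay between, since Asb2 also ran with Tbc1d4 (0.61) and Cd200 (0.55), and Podnl1 with Tbc1d4 (0.54), close to the 0.58 of Cd200 with Tnfsf8. The sums share libraries and cell classes and are not independent, so these values are a description. Among 7998 genes, the nearest to Sostdc1 were Synpo (r = 0.87), Asap1 (0.86) and Ptpn6 (0.85). The nearest to Tnfsf8 were Tnfsf14 (0.90), Pecam1 (0.89) and Evl (0.86), and to Cd200 Tiam1 (0.87), B630019A10Rik (0.85) and Tasp1 (0.85). Tbc1d4 was nearest to Plekho1 (0.85), Arap2 (0.85) and Pou2f2 (0.82). Asb2 was nearest to Itm2c (0.92), Sdf4 (0.88) and Dusp1 (0.87), Podnl1 to Maf (0.87), Cd4 (0.86) and Rac2 (0.80), and Igfbp7 to Il12rb2, Ms4a6c and Ccl1 (each 0.76). The mean of the 7 genes ran closest to Bace2 (0.92), Plekho1 (0.91), Rnf19a (0.89), Ccdc28b (0.88) and Cd82 (0.87), followed by Gm14718, Btla, Arap2, Pou2f2 and Itpr1 (0.86 to 0.83).

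**Figure D5:**
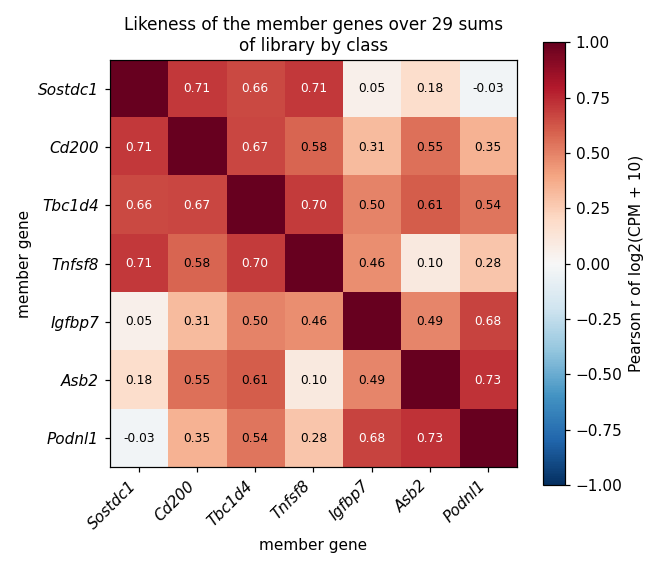
Pearson's r of log2(CPM + 10) between the 7 genes over 29 sums of library by class (color scale from -1 to 1). Pairs among Sostdc1, Cd200, Tbc1d4 and Tnfsf8 have r of 0.58 to 0.71, Tbc1d4 with Asb2 has 0.61, and Podnl1 is nearest to Asb2 (0.73) and Igfbp7 (0.68).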

How the data were processed

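Single-cell RNA of spleen Tc was measured in 4 libraries, 2 per genotype, grouped by their labels. The deposited values are UMI counts, whole numbers for each gene in each cell, made by the authors with Cell Ranger 6.1.2 on mm10, per the submitters' processing notes, without normalization. Library sizes leave out the antibody tag. GENCODE M21 lists 32158 of the 32285 identifiers.

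Cells under 500 genes or 1000 UMIs, or over 10% mitochondrial UMIs, were dropped. This left 3431 and 2551 cells of Havcr2fl/fl;E8icre/+ replicates 1 and 2 and 1213 and 4437 of Havcr2fl/fl replicates 1 and 2. Scrublet (scanpy 1.11.5) calls (1, 6, 7 and 105 cells) were removed. Since these are few, removal at 0.8% per 1000 barcodes was added after the data were seen, as was cluster 1 joined with cluster 0. Clustering used Seurat 5.3.0 (2000 variable genes, 30 dimensions, 20 neighbors; Tc clusters held a Cd3 UMI in over 50% of cells). A cluster was named from marker lists with at least 3 raised markers (log2 difference of at least 0.5, in at least 10% of cells). UMIs were summed per library and class, passed through filterByExpr and compared in edgeR 4.0.16 (R 4.3.3; TMM, robust quasi-likelihood test, Benjamini-Hochberg adjustment, threshold 0.05). SEs were taken from the fold change and the F statistic. DESeq2 1.42.0 was an alternative, beside those in the closing section. The members, lists and tests were chosen with earlier results of these data known. Named genes are the members, markers that set classes, list genes past the threshold or up to 4 others per list, and the genes nearest to each member (3) and to their mean (10). The top genes of clusters and the CD4+ Tc levels of list genes were chosen after their values were seen. Nothing says whether samples differ beyond the mouse, so p-values between genotypes measure the spread between these mice. In the comparison by a Tcf7 UMI, library was a block. Its p-values therefore measure how even the difference within a mouse was over these mice. The scripts were tested on simulated data. Figures were drawn with matplotlib 3.10.9.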

Additional observations from a re-analysis of the deposited data

Results flagged for a closer look

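Tc with neither a Cd4 nor a Cd8a or Cd8b1 UMI entered no comparison. The summed UMIs of the 7 members were higher there in both libraries labelled Havcr2fl/fl;E8icre/+ than in the controls. The sum was 705 and 733 CPM in replicates 1 and 2, from 157 and 127 cells. In Havcr2fl/fl it was 547 and 620 CPM, from 44 and 206 cells. This order describes the sum and does not hold for each member. In cells outside the Tc clusters the same sum was 26.0 and 25.2 CPM in the libraries labelled Havcr2fl/fl;E8icre/+ and 21.1 and 6.09 CPM in Havcr2fl/fl. In Tc with both Cd4 and Cd8 UMIs it ran from 541 to 819 CPM, with the lowest and the highest value in Havcr2fl/fl. Their cause was not tested.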

How the results depend on the processing

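In CD8+ Tc, Sostdc1, Cd200 and Tbc1d4 kept their direction and their call under each of 14 alternatives and Tnfsf8 under 11, the exceptions being 2 left-out libraries and Tcf7 or Slamf6 UMIs against neither (1.44, edgeR adjusted p = 0.0535). The number of genes called there was 871 with DESeq2 and 695 with no library block, and 844 to 1591 with libraries left out. With Tcf7 or Slamf6 UMIs, Igfbp7 turned to 0.85 and Asb2 to -0.0431, and with doublets removed at the expected rate Asb2 was -0.0131. With libraries left out, Asb2 ran from -0.12 to 0.25, Podnl1 from -0.0461 to 0.52 and Tnfsf8 from 1.51 to 2.00. Across CD4+ Tc states, the median log2 ratio of the members was 1.90 with Scrublet calls kept in and 1.86 with clusters 0 and 1 together, and Igfbp7 (1.81 and 1.62), Asb2 (1.56 and 1.5) and Podnl1 (0.92 and 0.84) turned.

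Between genotypes, genes called in CD4+ Tc numbered 2 with the stricter cell filter or Scrublet calls kept in, 5 with DESeq2, 29 without a filter on low counts and 0 to 24 with libraries left out. In the precursor-like cluster they numbered 0 with the stricter filter, DESeq2 or a gate on Tcf7 without Foxp3, 2 with Scrublet calls kept in or at least 2 UMIs for the lineage call, 3 with cluster 0 added, 4 with members among the variable genes, 9 without the count filter and 0 to 7 with libraries left out. In CD8+ Tc with a Tcf7 UMI they numbered 0 with the stricter filter, 2 with doublets removed at the expected rate, 35 without the count filter (1 member, Tbc1d4) and 11 to 84 with libraries left out. Members called ran from 0 to 1, 0 to 1 and 0 to 2 with libraries left out. In CD4+ Tc those fits moved Sostdc1 from -0.81 to 1.51, Igfbp7 from -0.74 to 0.61, Cd200 from -0.44 to 0.66, Tbc1d4 from -0.16 to 0.56, Tnfsf8 from -0.35 to 0.63, Asb2 from -0.0585 to 0.48 and Podnl1 from -0.28 to 0.31. In the precursor-like cluster they moved Sostdc1 from -0.51 to 1.69, Cd200 from -0.0799 to 1.18 and Podnl1 from -0.0310 to 0.90. In CD8+ Tc with a Tcf7 UMI they moved Cd200 from -0.0301 to 1.41, Sostdc1 from 0.09 to 2.51 and Tbc1d4 from 0.95 to 1.26. Cd200 also turned in CD4+ Tc without the count filter (4.22e-05), and in the precursor-like cluster with Scrublet calls kept in (-0.0855), with the gate (-0.0410) and with cluster 0 added (-0.0257). Podnl1 turned in CD4+ Tc with at least 2 UMIs for the lineage call (-0.10). Where no value shows it, the cause was not tested.

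Replicate numbers 1 and 2 recur in both genotypes, but over all genes tested same-numbered libraries did not deviate together (r = -0.06 in CD4+ Tc, 0.00 in the precursor-like cluster and 0.03 in CD8+ Tc with a Tcf7 UMI). Sostdc1 differed, since it was higher in replicate 2 than in replicate 1 of both genotypes in the precursor-like cluster and in CD8+ Tc with a Tcf7 UMI. With the number as a replicate block, 0, 5 and 4 genes and 0 members were called, and Cd200 in CD4+ Tc turned to 0.0479. The log2 fold changes of Sostdc1 were then 0.49 ± 0.26, 0.47 ± 0.29 and 1.07 ± 0.26 (SE), with smaller errors than without the block. Of the 3 classes compared between genotypes, the precursor-like cluster had the fewest UMIs, 155508 to 842298 per library, and the fewest genes tested.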
